A study of Mus musculus with 2 samples.

Results

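Fc receptors are the proteins through which immune cells sense antibodies, and 7 of their genes were followed in microglia, the resident macrophages of the brain: Fcgr1, Fcgr3, Fcgr4, Fcgr2b, Fcer1g, Fcrls and Fcgrt. They were chosen by name, and all 7 were found among the 32285 genes of the feature table. The cells came from mice aged 12 weeks with 1 copy of Cx3cr1CreERT2(Litt), an allele that puts tamoxifen-inducible Cre under the control of the fractalkine receptor gene Cx3cr1. The mice received tamoxifen (TAM), an estrogen receptor ligand that lets CreERT2 enter the nucleus, for 4 weeks, or oil, for which the labels state no duration. Both treatments therefore carry the allele, and no mice lacking Cre were part of the comparison. Sorted CD11b+ CD45+ Ly6G- CD206- brain cells were tagged with oligonucleotide-bearing antibodies (hashtags) named TAM1 to TAM5 and Oil1 to Oil5, and were read out as 1 droplet pool. Whether a hashtag stands for 1 mouse is not stated in the labels; p-values therefore rest on hashtag-to-hashtag spread, part of which may be technical.

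Fc gamma receptors bind the constant part of IgG on coated targets. Fcgr1 encodes the high-affinity receptor CD64, and Fcgr3 and Fcgr4 encode activating receptors of lower affinity. These receptors signal through the common gamma chain encoded by Fcer1g, whose tyrosine motif recruits the kinase Syk. Fcgr2b encodes the inhibitory receptor, which recruits the lipid phosphatase SHIP-1. Fcrls encodes an Fc receptor-like protein that is known as a marker of mouse microglia, and Fcgrt encodes the heavy chain of the neonatal receptor, which pairs with B2m and returns endocytosed IgG to the cell surface. Interferons are known to raise Fcgr1 and Fcgr4 in macrophages.

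On GRCm38, 4 of the genes lie close together on chromosome 1: Fcgr2b (ENSMUSG00000026656) at 170958617 to 170976547, Fcgr4 (ENSMUSG00000059089) at 171018920 to 171029761, Fcgr3 (ENSMUSG00000059498) at 171051174 to 171064935 and Fcer1g (ENSMUSG00000058715) at 171229572 to 171234365. Chromosome 3 holds Fcrls (ENSMUSG00000015852) at 87250758 to 87263738 and Fcgr1 (ENSMUSG00000015947) at 96282909 to 96293969. Fcgrt (ENSMUSG00000003420) is on chromosome 7 at 45092990 to 45103851. Fcgr4 is on the plus strand and the other 6 genes are on the minus strand. The opposite strand carries Gm38204 within the span of Fcgr2b and Gm45669 within that of Fcgrt, and how the strand was counted is not given in the sources used here. In the last 500 bases of the longest coding transcript, where these tags arise, Fcgr2b, Fcgr3, Fcer1g, Fcrls and Fcgrt shared no stretch of 25 bases with transcripts of another gene. Fcgr1 shared 2 and Fcgr4 shared 24 of 476 such stretches.

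The promoters of Fcgr1 and Fcgr4 are shown because, among the microglia-like clusters, these members were highest in cells led by interferon-induced genes. The sequences are from RefSeq (GRCm38.p6) and run from 250 bases before to 50 bases after the annotated start. The Fcgr1 window is chr3:96293920-96294219 on the minus strand, and its capitals mark a match to the interferon-gamma activated site TTCNNNGAA, beginning 109 bases before the start. The Fcgr4 window is chr1:171018676-171018975 on the plus strand, and its capitals mark a match to the core of the interferon-stimulated response element (ISRE), GAAA and GAAA separated by any 2 bases, beginning 73 bases before the start.
Fcgr1: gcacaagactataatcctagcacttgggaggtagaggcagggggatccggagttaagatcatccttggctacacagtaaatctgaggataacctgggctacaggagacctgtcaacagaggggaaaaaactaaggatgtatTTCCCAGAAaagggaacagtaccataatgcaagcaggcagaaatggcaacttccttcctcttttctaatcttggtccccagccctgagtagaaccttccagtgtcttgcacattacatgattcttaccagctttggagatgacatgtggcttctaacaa
Fcgr4: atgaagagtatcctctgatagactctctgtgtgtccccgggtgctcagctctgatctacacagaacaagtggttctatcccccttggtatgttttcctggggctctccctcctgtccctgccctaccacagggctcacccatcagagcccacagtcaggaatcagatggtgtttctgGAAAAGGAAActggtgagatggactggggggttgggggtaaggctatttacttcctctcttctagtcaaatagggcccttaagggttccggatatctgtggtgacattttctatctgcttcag
Both strands were searched in the promoters of all 7 genes, of which Fcgr3 had 2 windows. TTCNNNGAA was matched in the Fcgr1 window alone among them and in 8.30% of 32851 promoters of all genes, and the ISRE core in the Fcgr4 window alone and in 3.44%. The letters GAGGAA, the core bound by PU.1, the myeloid transcription factor, were matched for Fcgr1, Fcgr3, Fcgr4 and Fcrls and in 28.3% of all promoters. A match says only that these letters are present.

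The data hold 51821041 UMIs (distinct tagged molecules) of genes in 9975 droplets, and 7903 single cells remained after assignment to hashtags and filtering. Of these, 7495 cells lay in 6 clusters called microglia-like, in which the median of 14 microglial markers (Fcrls not among them) was detected in 96.2% to 99.6% of cells. A hashtag had between 580 and 897 of these cells and 2946671 to 4788882 UMIs, at medians of 4907.5 to 5123 UMIs per cell. The clusters were made without the 7 genes, and the markers of the labelled cell type were thus present. In the microglia-like cells the 8 mast cell or basophil markers, Fcer1a included, summed to 0 to 0.472 CPM (the genes' UMIs scaled to a common library total) in TAM and 0 to 0.283 CPM in oil hashtags, and the 8 monocyte markers summed to 7.56 to 18.5 CPM in TAM and 5.38 to 13.6 CPM in oil hashtags. Xist and Y-linked genes divided the hashtags into 6 read as female and 4 read as male (TAM1, TAM2, Oil1 and Oil2), a division that comes from the counts, since the labels give no sex per hashtag.

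Fcrls and Fcer1g were the most abundant of the 7 genes and Fcgr4 the rarest. Fcrls gave 69358 UMIs and was seen in 98.1% of microglia-like cells, and Fcer1g gave 58759 UMIs in 99.3%. Fcgr3 gave 28016 UMIs in 94.6% of cells, Fcgr1 11148 in 73.6% and Fcgr2b 6556 in 53.1%. Fcgrt, with 2161 UMIs, was seen in 24.1% of cells, and Fcgr4, with 366 UMIs, in 4.24%. One 3′ tag is counted per molecule, so these counts do not scale with transcript length, but capture can differ between genes. The inhibitory Fcgr2b had 0.246 ± 0.0142 UMIs per UMI of the activating Fcgr3 in TAM and 0.225 ± 0.0260 in oil hashtags (SD, n = 5 each), with a range of 0.230 to 0.268 in TAM and 0.204 to 0.269 in oil, so the ranges overlap. The make-up of the family, given without a test, was as follows: Fcrls took 38.7% and 39.7% of the members' UMIs in TAM and oil hashtags, Fcer1g 33.5% and 33.2%, and Fcgr3 15.9% in each.

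The cluster led by Ifit3 and Ifit2, genes that interferons induce, called the interferon cluster here, held 139 cells, 88 from TAM and 51 from oil hashtags. Levels in this and the other clusters are CPM of all UMIs in those cells. They are a description with no test, since a cluster is defined by the genes of the same cells. Fcgr1 was at 613 CPM in interferon cells (455 UMIs, 95% Poisson interval 558 to 672, counting error only) and at 281 CPM in the other 7356 microglia-like cells. By hashtag, Fcgr1 in interferon cells was at 261 CPM at the lowest, 619 at the median and 960 at the highest, and in the other cells at 257 at the lowest and 299 at the highest. It was higher in the interferon cells of 9 of 10 hashtags, the exception being Oil5 with 5 such cells and 7 UMIs. A UMI of Fcgr1 was found in 96.4% of interferon cells and, after each cell was thinned to 2000 UMIs, in 66.9%. In cluster 2 these shares were 74.8% and 40.2%, at median depths of 5197 UMIs in interferon and 5559 UMIs in cluster 2 cells. In the cluster led by Fos, at a median of 5367 UMIs, they were 77.4% and 42.5%. Over all other microglia-like clusters the share after thinning ran from 34.2% (cells led by Spp1) to 45.4% (cluster 0).

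Fcgr4 was at 44.4 CPM in interferon cells, from 33 UMIs (95% Poisson interval 30.6 to 62.4), and at 8.74 CPM in the other microglia-like cells, and it was higher in the interferon cells of 10 of 10 hashtags. The 33 UMIs came from 21 of the 139 cells, and 6 cells held more than 1. Of these UMIs 11 lay in TAM interferon cells, at 23.7 CPM, and 22 in oil interferon cells, at 78.8 CPM. With 1 to 8 UMIs per hashtag, the levels by hashtag, from 12.6 to 187 CPM, are imprecise. After thinning, 3.60% of interferon cells had a UMI, against 1.36% to 2.55% in the other microglia-like clusters, and no difference is read from shares near the level of 1 UMI.

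Not all Fc receptor genes were high in these cells. Fcrls was at 1204 CPM in interferon cells and 1798 CPM in the other microglia-like cells, and lower in the interferon cells of 9 of 10 hashtags (TAM4 was the exception). The inhibitory Fcgr2b was at 176 against 169 CPM, the activating Fcgr3 at 692 against 722 CPM and Fcgrt at 52.5 against 55.7 CPM. They were higher in 4, 3 and 5 of 10 hashtags. Fcer1g was at 1656 against 1511 CPM, higher in 7 of 10 hashtags. For each of these genes the gap was below the SD of interferon cells over hashtags (42.8, 103, 31.3 and 354 CPM). With 5 to 24 interferon cells per hashtag, this SD includes counting error and does not tell changed from unchanged genes. The 14 microglial markers summed to 25458 CPM in interferon cells and 27527 CPM in the others. The 8 monocyte markers summed to 53.9 CPM in interferon cells and 11.1 CPM in the others. In interferon cells Ly6c2, Fn1 and Chil3 were at 0, and Ccr2, Plac8, S100a4, Vcan and Ms4a4c were detected. The 8 markers of CNS-associated macrophages summed to 20.2 and 10.4 CPM. Of these, Mrc1 and Folr2 were detected in interferon cells and the other 6 were at 0, Cd163, Lyve1 and Pf4 included. The part of such cells in the Fcgr4 and Fcrls levels was not tested.

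**Figure D1:**
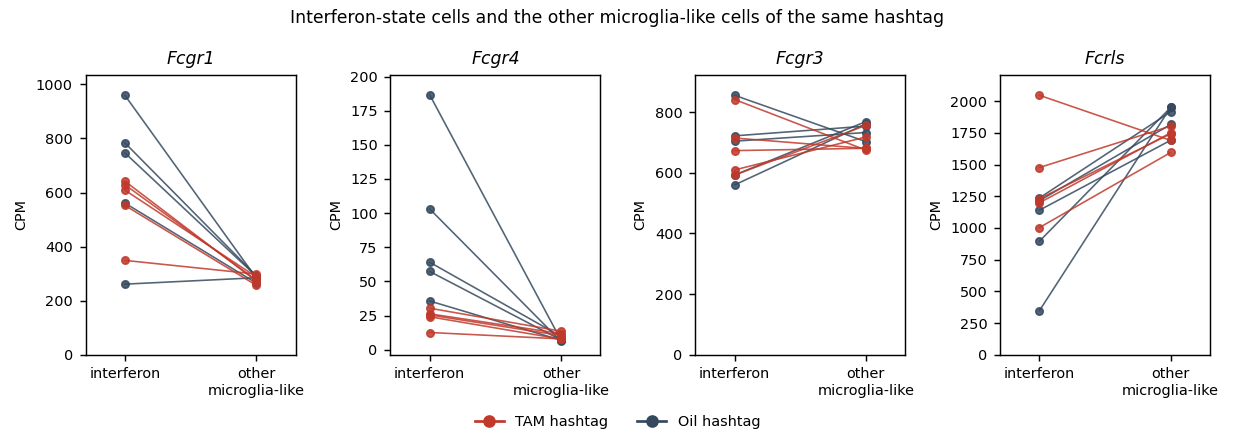
Each line joins the CPM of a gene (linear axis) in the interferon cells and in the other microglia-like cells of the same hashtag, for Fcgr1, Fcgr4, Fcgr3 and Fcrls. Fcgr1 lies higher in interferon cells in 9 of 10 hashtags and Fcgr4 in 10 of 10, Fcrls lies lower in 9 of 10, and Fcgr3 goes both ways.

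The cluster led by Mki67 and Top2a, called dividing cells here (146 cells, 129 of them TAM and 17 oil), had a different make-up. A UMI of Mki67 was found in 42.5% and of Top2a in 29.5% of these cells, so not all of them need be dividing. Fcgr2b was at 218 CPM in dividing cells and 168 CPM in the other microglia-like cells, higher in the dividing cells of 6 of the 6 hashtags that had at least 5 of them. Fcgr3 was at 468 against 728 CPM and Fcgr1 at 229 against 289 CPM, each lower in 6 of 6 hashtags. Fcer1g, at 1174 against 1522 CPM, was lower in 4 of 6. Fcrls, at 1768 against 1787 CPM, was lower in 3 of 6 and Fcgrt, at 58.1 against 55.6 CPM, higher in 4 of 6. Of these 6 hashtags 5 are TAM hashtags. These levels depended on the clustering. At resolution 1.0 a dividing cluster of 37 cells (median 8987 UMIs) had Fcgr2b at 159.7 CPM. The microglia-like cells of no named state, a narrower reference than above, were at 172 CPM. The higher Fcgr2b level was thus not seen in these 37 cells, and without an interval no turn of direction is read. Fcgr3 there was also at 159.7 CPM, against 735 CPM. At the same resolution 137 other cells formed a cluster whose leading genes included Phlda3, Cenpf and Cdkn1a. Their overlap with the 146 cells was not tested.

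In the 199 cells led by Spp1, Lgals3 and Lpl, genes of activated microglia, Fcgr1 was at 198 CPM, against 290 CPM in the other microglia-like cells, and lower in 10 of 10 hashtags. Fcgr3 (635 against 724 CPM) and Fcrls (1560 against 1794 CPM) were lower in 9 of 10. Fcer1g was at 1617 against 1510 CPM and higher in 9 of 10. At resolution 1.0 it was at 1487 CPM in 207 such cells, against 1517 CPM in the microglia-like cells of no named state, a narrower reference. The higher Fcer1g level was thus not seen there, and without an interval no turn of direction is read. Fcgr4 was at 14.2 CPM from 17 UMIs and Fcgrt at 40.1 CPM from 48 UMIs.

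Most cells lay in the largest clusters, numbered 0 (2895 cells, median 4316 UMIs) and 2 (2791 cells, median 5559 UMIs), whose leading genes name no state. Cluster 0 had the higher level of all 7 genes. Fcer1g was at 1842 CPM in cluster 0 and 1274 CPM in cluster 2, Fcgr3 at 862 and 642 CPM, Fcrls at 1909 and 1673 CPM, Fcgr1 at 309 and 266 CPM, Fcgr2b at 195 and 151 CPM, Fcgrt at 62.5 and 50.5 CPM, and Fcgr4 at 10.6 and 7.15 CPM. For Fcer1g and Fcgr3 the ranges over the 10 hashtags did not overlap: Fcer1g spanned 1701 to 1952 CPM in cluster 0 and 1197 to 1388 CPM in cluster 2, and Fcgr3 813 to 913 CPM and 586 to 689 CPM. The part of the depth gap between the clusters in these levels was not tested. The 1325 cells of the immediate early cluster, led by Fos, Fosb and Dusp1, had Fcgr1 at 285, Fcgr3 at 703, Fcer1g at 1481 and Fcrls at 1920 CPM.

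**Figure D2:**
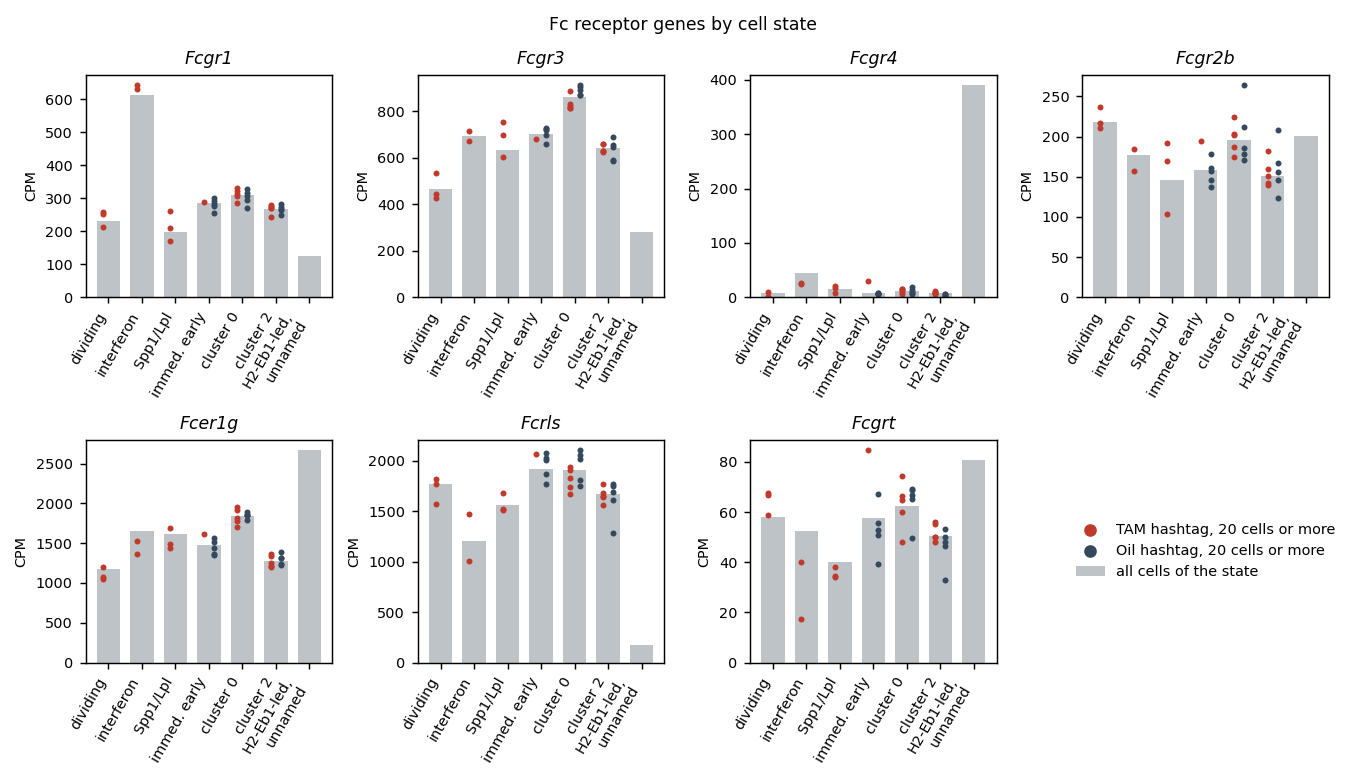
Bars give the CPM (linear axis) of each gene in all cells of a cluster, and points give single hashtags with at least 20 cells there, TAM to the left and oil to the right of a bar's middle. Fcgr1 is highest in the interferon cells (613 CPM), Fcgr4 in the unnamed H2-Eb1-led cells (390.5 CPM), where Fcrls is lowest (176 CPM).

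Outside the microglia-like clusters, 52 cells led by H2-Eb1 and H2-Aa, which encode antigen-presenting MHC class II chains, 38 from TAM and 14 from oil hashtags, had another Fc receptor profile. They were left unnamed because no marker list reached the share of cells needed. The 8 monocyte markers summed to 1438 CPM there, the 8 CNS-associated macrophage markers to 638 CPM and the 8 dendritic cell markers to 210 CPM. In the microglia-like cells these lists summed to 11.9, 10.6 and 33.0 CPM. Ly6c2 and Vcan of the monocyte list and Lyve1, Cbr2 and Folr2 of the macrophage list were at 0. So were Xcr1, Ccr7 and Itgae of the dendritic cell list. The other 6, 5 and 5 markers of these lists were detected. The 14 microglial markers summed to 4096 CPM, against 27488 CPM in the microglia-like cells. Fcgr4 was at 390.5 CPM, from 82 UMIs in 27 of the 52 cells, which is 18.2% of all Fcgr4 UMIs in 0.658% of the cells. Fcer1g was at 2667 and Fcgr2b at 200.02 CPM, whereas Fcrls was at 176, Fcgr1 at 124 and Fcgr3 at 281 CPM. A UMI of Fcrls was found in 13 of these 52 cells (median 3684.5 UMIs), and whether free RNA gave these UMIs was not tested. In the dividing, immediate early and both large microglia-like clusters Fcgr4 was seen in a like low share of cells, 3.42% to 4.08%, and free RNA as its source there was not tested.

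The comparison of TAM with oil asked whether tamoxifen changed the Fc receptor genes in microglia-like cells, on counts summed per hashtag. None of the 7 genes passed the test (edgeR quasi-likelihood test, adjusted p below 0.05), all 7 having passed the filter on low counts. Over all 11169 genes tested, 4.56% were called, 187 (1.67%) higher and 322 (2.88%) lower. Higher genes made up 36.7% of these calls, and 59.1% of 599 calls when only library size was used for scaling, which moved the median log2 fold of all genes to 0.04. At an unadjusted p under 0.05, 2 of the 7 genes and 2165 of all genes were found with edgeR. DESeq2 called 1 of the 7, Fcrls, and 527 of the 20085 genes with at least 1 UMI (adjusted p below 0.05). The median log2 fold of the 7 genes was -0.06 and that of all genes -0.00016. The ranges of TAM and oil hashtags overlapped for all 7 genes, and they did not overlap for 5.27% of all genes.

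Fcrls came nearest to the threshold. It had 1732, 1741, 1777, 1660.0 and 1561 CPM in TAM1 to TAM5, against 1835, 1713, 1959, 1937 and 1972 CPM in Oil1 to Oil5 (means 1694 ± 85.4 and 1883 ± 109, SD, n = 5 each). TAM4 and TAM5 were below every oil hashtag, and TAM1, TAM2 and TAM3 lay between Oil2, the lowest oil hashtag, and the other oil hashtags. The log2 fold change was -0.15 ± 0.05 (SE), with an approximate 95% interval of -0.26 to -0.05 and an adjusted p of 0.0637 (edgeR). Fcrls passed in 6 of 26 alternatives. Among these were the fit without Oil2 (log2 fold -0.18, adjusted p = 0.0294, edgeR) and DESeq2 (adjusted p = 0.0401). Another was sex as a covariate (-0.15, adjusted p = 0.0298, edgeR). It did not pass with stricter hashtag assignment (-0.14, adjusted p = 0.166, edgeR), which kept 291 of the 622 Oil2 cells. Over the alternatives its adjusted p ran from 0.0054 to 0.988.

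Fcgr3 had 715, 754, 673, 663 and 675 CPM in TAM1 to TAM5, against 742, 718, 779, 767 and 770.3 CPM in Oil1 to Oil5 (means 696 ± 37.9 and 755 ± 24.9, SD, n = 5 each). TAM1, TAM3, TAM4 and TAM5 were below all oil hashtags, TAM1 narrowly, and TAM2 lay within the oil range. The log2 fold change was -0.12 ± 0.04 (SE), with an approximate 95% interval of -0.22 to -0.02 and an adjusted p of 0.123 (edgeR). Without TAM2 it was -0.15 and passed (adjusted p = 0.0469, edgeR; 0.0057 to 0.992 over the alternatives).

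Fcer1g, the partner chain, had 1589, 1639, 1419.9, 1307 and 1398 CPM in TAM1 to TAM5, against 1622, 1524, 1605, 1507 and 1623 CPM in Oil1 to Oil5. TAM2 was the highest of the 10 hashtags and TAM4 the lowest. The log2 fold change was -0.10 ± 0.05 (SE), short of the threshold (adjusted p = 0.324, edgeR). The remaining activating receptor genes did not pass either. Fcgr1 was at 283 ± 16.3 CPM in TAM and 294 ± 12.0 CPM in oil hashtags (log2 fold -0.06, approximate 95% interval -0.16 to 0.05, adjusted p = 0.567). Fcgr4 was at 10.51 ± 2.57 and 8.48 ± 1.09 CPM, from 31 to 58 UMIs per TAM hashtag and 24 to 36 per oil hashtag, with a log2 fold of 0.30 and a wide interval of -0.10 to 0.70 (adjusted p = 0.369). When the cells of the unnamed clusters were added, Fcgr4 passed at 0.53 (adjusted p = 0.0463, edgeR), and the H2-Eb1-led cluster held 64 TAM and 18 oil UMIs of Fcgr4.

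The inhibitory Fcgr2b was at 172 ± 19.4 CPM in TAM and 170 ± 16.8 CPM in oil hashtags (log2 fold 0.01, interval -0.16 to 0.19, adjusted p = 0.951, edgeR). TAM2, at 202 CPM, and Oil1, at 199 CPM, were the highest hashtags of their treatments. Fcgrt was at 55.1 ± 3.26 and 56.6 ± 6.09 CPM (log2 fold -0.03, interval -0.21 to 0.14, adjusted p = 0.863). Its partner B2m was at 1080 ± 58.7 CPM in TAM and 1083 ± 41.0 CPM in oil hashtags (log2 fold -0.0040, adjusted p = 0.98).

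**Figure D3:**
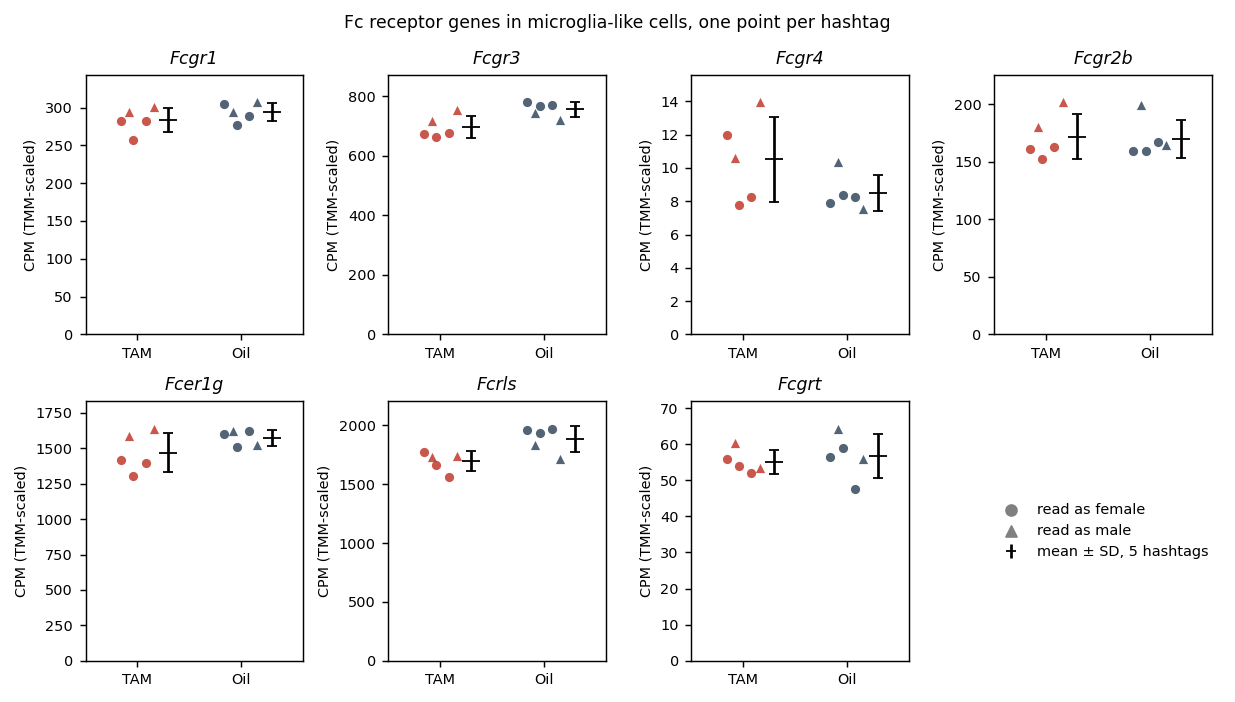
Points give the TMM-scaled CPM (linear axis from 0) of each gene in the microglia-like cells of 1 hashtag, circles for hashtags read as female and triangles for male, with mean ± SD of 5 hashtags beside them. The TAM and oil points overlap for every gene, and the 3 female TAM hashtags lie below the 3 female oil hashtags for Fcgr3, Fcer1g and Fcrls. The share of all genes that separate in this way in female hashtags was not counted.

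The make-up of cells differed between treatments: cluster 2, where Fcer1g and Fcgr3 were low, held 1882 TAM and 909 oil cells, and the immediate early cluster 70 TAM and 1255 oil cells. In immediate early cells Fcrls was higher than in the other microglia-like cells in 7 of 8 hashtags, Fcgr3 lower in 8 of 8 and Fcer1g lower in 6 of 8. Without the immediate early and dividing clusters the log2 folds of Fcgr3, Fcer1g and Fcrls were -0.14, -0.14 and -0.09 (adjusted p = 0.0796, 0.162 and 0.403, edgeR). Within cluster 0 alone the log2 folds of Fcgr3, Fcer1g and Fcrls were -0.12, -0.03 and -0.13, and within cluster 2 alone -0.01, -0.04 and 0.01. None of the 7 genes passed in either (edgeR). An unadjusted p under 0.05 was found for 2 genes in cluster 0, Fcgr3 and Fcrls, and for 1 in cluster 2, Fcgr4 (log2 fold 0.92). Over all genes it was found for 959 of 9323 in cluster 0 and 832 of 9730 in cluster 2 (edgeR). In cluster 0 Fcgr3 was at 834 ± 30.03 CPM in TAM and 891 ± 19.8 CPM in oil hashtags, and in cluster 2 at 641 ± 18.2 and 634 ± 43.9 CPM (SD, n = 5 each). The mean log2 CPM of 20 immediate early genes, which tissue handling is known to switch on, was 3.99 to 5.08 in TAM and 5.19 to 7.13 in oil hashtags. These ranges do not overlap, so a fit cannot well tell this level apart from treatment. With this level as a covariate the log2 folds of Fcgr3, Fcer1g and Fcrls were -0.09, 0.04 and -0.18, and none of the 7 genes passed (edgeR). An unadjusted p under 0.05 was found for 3 genes: Fcrls, Fcgr2b (log2 fold 0.29) and Fcgr4 (0.73). Over all genes such a p was found for 1101 of 11169 (edgeR).

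With a separate TAM effect for each sex in 1 fit, 3 of the 7 genes fell in female hashtags, where 5.71% of all genes were called, and none passed in male hashtags, where 1.3% were (edgeR; 0 at an unadjusted p under 0.05; DESeq2 was not run by sex). In female hashtags Fcrls was at 1666 ± 108 CPM with TAM and 1956 ± 17.5 CPM with oil (log2 fold -0.23 ± 0.05, adjusted p = 0.0034, edgeR, n = 3 each). Fcgr3 was at 670.2 ± 6.43 and 772 ± 6.11 CPM (-0.21 ± 0.04, adjusted p = 0.0042, edgeR) and Fcer1g at 1375 ± 59.8 and 1578 ± 62.5 CPM (-0.20 ± 0.05, adjusted p = 0.0093, edgeR). For each of these 3 genes every female TAM hashtag lay below every female oil hashtag. How often 3 against 3 hashtags separate over all genes was not counted, so nothing further is read from this. In male hashtags, 2 per treatment, the log2 folds were -0.03 for Fcrls, 0.0064 for Fcgr3 and 0.04 for Fcer1g.

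The difference between the sexes did not pass the test itself. The log2 fold in female minus male hashtags was -0.24 ± 0.07 for Fcer1g, -0.21 ± 0.07 for Fcgr3 and -0.20 ± 0.07 for Fcrls (SE, adjusted p = 0.704, 0.744 and 0.798, edgeR). None of the 7 genes passed; 3 had an unadjusted p under 0.05, and over all 11727 genes 681 did while 0% were called. The hashtags read as male carry the numbers 1 and 2 in each treatment, so sex and hashtag number cannot be told apart.

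**Figure D4:**
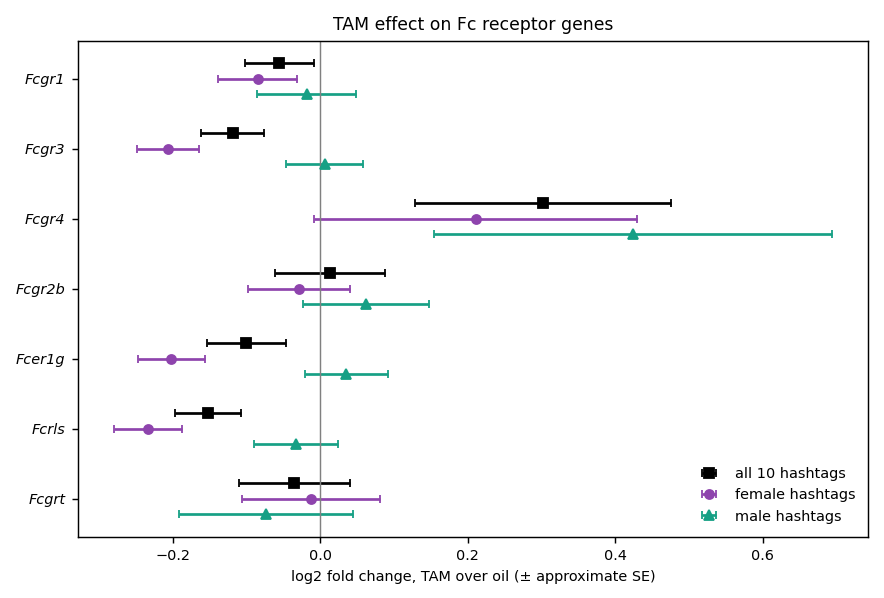
Points give the log2 fold change of TAM over oil with its approximate standard error, for all 10 hashtags and for female and male hashtags in a fit by sex. The female folds of Fcgr3, Fcer1g and Fcrls lie between -0.23 and -0.20 and the male folds of these genes between -0.03 and 0.04.

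Among the partners and downstream genes, few passed the test of TAM against oil, to be read against the 4.56% called over all genes. DESeq2 counts are to be read against the 527 of 20085 genes that DESeq2 called. Of 9 measured Src family, Syk and Tec family kinase genes, which act first after the receptors, 1 rose and 8 did not pass (median log2 fold 0.0089). The gene that rose was Fyn, a Src family kinase, at 32.0 ± 4.25 CPM in TAM and 24.2 ± 1.81 CPM in oil hashtags (0.40 ± 0.10, adjusted p = 0.0298, edgeR). Syk was at 205 and 212 CPM, Lyn at 1263 and 1302 CPM. Of 19 measured scaffold, lipase and exchange factor genes 1 rose, Lcp2, which encodes the adaptor SLP-76, at 239.9 ± 9.92 and 215 ± 7.68 CPM (0.16 ± 0.04, adjusted p = 0.0475). None of 17 measured inhibitory receptor and phosphatase genes passed in edgeR or DESeq2, and 2 had an unadjusted p under 0.05 in edgeR. Inpp5d, which encodes SHIP-1, the phosphatase recruited by the Fcgr2b product, was at 1769 CPM in TAM and 1752 CPM in oil hashtags, and Ptpn6, which encodes SHP-1, at 131 and 147 CPM (adjusted p = 0.0799).

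Of 22 measured genes of the phagocytic cup and its actin machinery, 3 fell and 19 did not pass (median log2 fold -0.03; DESeq2 called 5). Coro1a, which encodes the actin-binding protein coronin 1A, fell to 256 ± 19.3 CPM in TAM hashtags, against 321 ± 19.4 CPM in oil hashtags (-0.32 ± 0.06, adjusted p = 0.0048, edgeR), and the Arp2/3 subunit genes Arpc2 and Arpc3 had log2 folds of -0.21 and -0.19 (adjusted p = 0.0169 and 0.0412). Of the 4 measured adapters and receptors that signal like the gamma chain, Trem2 fell (-0.20 ± 0.04, adjusted p = 0.0171) and Tyrobp, which encodes the adapter DAP12, had a log2 fold of -0.12 that did not pass (adjusted p = 0.101). None of the 3 measured relatives of the Fc receptors passed, which were Fcrl1, B2m and Trim21, the gene of a cytosolic antibody receptor (0 in edgeR, 0 in DESeq2 and 0 at an unadjusted p under 0.05). Of 14 measured interferon response genes 1 rose, Ifi27l2a (33.8 ± 13.3 CPM in TAM and 14.1 ± 5.82 CPM in oil hashtags, adjusted p = 0.0166), and the list's median log2 fold was 0.12. Of 20 immediate early genes 16 fell, and the median over the 20 was -1.54.

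The pattern of each gene over clusters was compared with that of genes at 50 CPM or more, on log2(CPM + 10). The comparison ran over 34 sums of at least 20 cells of 1 hashtag in 1 microglia-like cluster. Ribosomal protein genes, mitochondrially encoded genes, genes with clone names, Xist and Tsix were left out of it. Fcgr4 fell below 50 CPM and was not compared. These sums share hashtags and the library, so Pearson's r is a description here, with no test. Fcgr1 was most like Parp9 (r = 0.82). Fcgr3 and Fcer1g were like each other (r = 0.90), and Fcer1g was most like C1qb (0.92) and C1qa (0.90), genes of the complement protein C1q. Fcgr2b was most like Snrpg (0.68), Fcrls like Ptpn6 (0.73) and Fcgrt like Lrrc25 (0.77). Between Fcgr1 and Fcgr3 r was 0.28 and between Fcgr2b and Fcgr3 0.13.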

How the data were processed

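Gene expression and hashtag libraries of 1 pool of sorted mouse brain cells were measured with a 10x Genomics 3′ kit, per the labels' protocols. The authors deposited raw UMI counts. The file headers name Cell Ranger 7.0.0, and the submitters' processing notes name the mm10 build. No source used here gives the annotation or the rule for kept barcodes. Hashtag names came from the deposited feature reference.

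HTODemux (Seurat 5.3.0, quantile 0.99, centred log ratios) gave 8055 singlets, 1737 barcodes with several hashtags and 183 with none; the last 2 kinds were left out. Some 196 further doublets that carry 1 hashtag would remain among singlets; no other doublet caller was run. Cells needed 500 genes, 1000 UMIs and at most 10% mitochondrial UMIs. Clustering used scanpy 1.11.5 (2000 variable genes without sex-linked genes and the 7 members, 30 components, 15 neighbours, Leiden resolution 0.5). A cluster was named microglia-like where at least 3 markers were in 25% of its cells and the median marker in 50%. It was left unnamed if its median UMIs lay below 1/3 of that of all cells and no marker was among its leading genes. This left out 356 cells led by Cntn5, with a median of 1517 UMIs, in which the median microglial marker was in 64.9% of cells. An Ifit-led, a Mki67-led and similar clusters are called by their leading genes.

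For each hashtag the counts of its microglia-like cells were added up and tested over all genes with edgeR 4.0.16 (TMM, filterByExpr, quasi-likelihood F test, Benjamini-Hochberg at 0.05). Standard errors are the absolute log2 fold over the square root of F. On simulated counts for TAM against oil with 11080 genes, 76 of 100 genes changed by a fold of 1.5 and 100 of 100 changed by a fold of 3 were recovered, and 13 unchanged genes were called in the same simulation, which held both fold sizes. DESeq2 1.42.0 was an alternative. Poisson intervals by cluster cover counting error only; intervals of log2 folds, from these standard errors, include the spread between hashtags. The members and lists were chosen with earlier results of these data known. Named genes were the members, up to 4 list genes past the threshold per list, and the 3 genes most like each member, some of which are not reported here; from the immediate early list only the count is given. Syk, Lyn, Inpp5d, Tyrobp, Fcrl1, B2m and Trim21 are named outside this rule and were chosen after their values were seen. Clec7a, a list gene, was not found by symbol in the feature table. Cluster 2 alone was added as an alternative after the data were seen.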

Additional observations from a re-analysis of the deposited data

Results flagged for a closer look

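Fcgr2b in Oil1 stood apart from the other oil hashtags: it was at 199 CPM, against 159 to 167 CPM in Oil2 to Oil5, a gap of 0.795 of the range of the 5 hashtags. Without Oil1 the log2 fold of Fcgr2b was 0.07 (adjusted p = 0.623, edgeR). It was the only such value among the 7 genes and 2 treatments, and chance marks about 1 in 20 groups.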

How the results depend on the processing

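With 26 alternatives each, Fcgr4 kept its direction in all of them (log2 fold 0.12 to 0.92), Fcgr3 and Fcrls in 25. Of the 7 genes, 1 was called with DESeq2, without a filter on low counts, with sex as a covariate and with the replicate block (Fcrls each time), 1 with all filtered singlets (Fcgr4), 3 in female hashtags alone and 0 to 1 without single hashtags. The count over all genes, 509, was 836 without a filter on low counts, 97 in the largest cluster alone, 35 in cluster 2 alone and 279 without the immediate early and dividing clusters. It was 527 with DESeq2, 519 with all filtered singlets and 642 in female hashtags alone. It was 880 with sex, 74 with the level of immediate early genes and 38 with hashtag order as a covariate. Hashtag order ran from Oil1 (1) to TAM5 (10), with all oil hashtags before all TAM hashtags. Neither this order nor the immediate early level can be well told apart from treatment. The count was 124 in male hashtags, 7 without Oil1, Oil2 and Oil3, and 250 to 656 without single hashtags (250 without TAM5, 259 without Oil3, 273 without TAM4, 299 without TAM3, 321 without Oil2). For the difference between the sexes, 0 genes were called, 73 without a filter on low counts, 19 with the replicate block and 0 to 5 without single hashtags, with none of the 7 genes among them.

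Hashtags with the same number need not be related: their deviations correlated at 0.0559 to 0.333, and 2 of 5 TAM hashtags matched their own number best. With the replicate block 877 genes were called and Fcrls passed (-0.15, adjusted p = 0.0364, edgeR).

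Signs turned, with no call, for Fcgr1 in the largest cluster (0.0109), with the level of immediate early genes (0.0585) or hashtag order (0.0758) as a covariate and without Oil1 to Oil3 (0.0058). Fcgr2b was at -0.0032 in the largest cluster, -0.0788 without the immediate early and dividing clusters, -0.0241 in female hashtags and -0.0455 (without TAM2) to 0.0748 without single hashtags. Fcgr3 was at 0.0085 in male hashtags, Fcer1g at 0.037 with the level, 0.0723 with the order and 0.0375 in male hashtags, and Fcrls at 0.0127 in cluster 2. Fcgrt was at 0.0013 with library size alone, 0.0982 in cluster 2, 0.2104 with the level, 0.2717 with the order, 0.0591 without Oil1 to Oil3 and -0.0946 to 0.0124 without single hashtags. The difference between sexes turned for Fcgr2b in the largest cluster (0.23) and without single hashtags (-0.2248 to 0.0526), for Fcgr4 in the largest cluster (0.85) and without single hashtags (-0.4521 to 0.0008), and for Fcgrt without single hashtags (-0.0338 to 0.1669). The cause of these changes was not tested.

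Of 70 levels and shares by cluster, 57 stayed within their spread at resolution 1.0 and 65 with the members kept among the variable genes; with them kept, Fcgr1 in interferon cells was at 651 and Fcgr4 at 49.3 CPM. Depth limits Fcgr4 most, at 24 to 58 UMIs per hashtag.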
